A study of Mus musculus with 16 samples.

Results

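The 92 genes described here encode the cytosolic ribosomal proteins of the mouse, chosen as the protein-coding rows of the deposited gene table whose symbols begin with Rpl or Rps and a number, or are Rplp0, Rplp1, Rplp2 or Rpsa, without the ribosomal S6 kinases. They are 92 of 55385 gene rows. By their known place, 43 encode canonical proteins of the large subunit, 31 of the small subunit and 3 of the stalk, which makes 77 canonical genes. Another 6 encode paralogs that can take the place of a canonical protein or are used mainly in particular tissues (Rps27l, Rpl22l1, Rpl36al, Rpl39l, Rpl3l and Rpl10l). A further 7 are copies that the annotation types as coding (6 symbols with "-ps", and Rps27rt), and 2, Rps19bp1 and Rpl7l1, fall under the symbol rule but encode other proteins.

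Ribosomal proteins are made in balance with ribosomal RNA and assembled with it in the nucleolus, and their output follows the growth state of a cell. Their mRNAs are known for a pyrimidine tract that begins with the C at the transcription start, the terminal oligopyrimidine (TOP) tract, through which translation of the whole class responds to mTOR signalling. Microglia, the resident macrophages of the retina, divide and enlarge after an injury to the optic nerve.

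The study measured RNA in microglia sorted from retinas of Iba1-EGFP mice, which carry EGFP under the promoter of Iba1 (Aif1), a gene of microglia and other macrophages. The 4 groups were untreated mice (day 0, 15 weeks old) and mice at day 2 (13 weeks), day 4 (13 weeks) and day 7 (16 weeks) after optic nerve crush, with 4 libraries each, and all 16 libraries came from the same reporter strain. Age and day cannot be told apart, except between days 2 and 4. Nothing in the labels says that libraries came from separate animals, so p-values reflect only how far these samples lie apart, and that spread could be technical. The first 4 digits of a code in the sample titles put replicates 1 and 2 of each day in one batch (batch 1). They put replicates 3 and 4 in another (batch 2). The full title code splits each batch further. In batch 1 days 0 and 4 share a full code, as do days 2 and 7. In batch 2 days 0 and 2 share one, as do days 4 and 7. Day 4 against day 0 thus crosses full codes in batch 2, and day 2 against day 0 in batch 1. Day 7 against day 0 crosses them in both. That the code marks a batch is a reading of the titles. Day 2 replicates 3 and 4 also have titles with another first letter, F in place of M, so at day 2 the letter and the batch cannot be told apart.

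The libraries held 8647276 to 15708302 reads. All 12 microglia markers checked were above 1 FPKM, the deposited unit that divides fragments by gene length and by library depth, in every library, with sums of 2772 to 11595 FPKM at day 0, 6427 to 11720 at day 2, 5863 to 7143 at day 4 and 5456 to 7442 at day 7. Genes of other retinal cells were present too, and their part in the results was not tested beyond the covariate given with the day 4 calls. The sum of 12 rod markers was 2799 to 13381 FPKM at day 0, 1937 to 7264 at day 2, 2369 to 5421 at day 4 and 4316 to 7608 at day 7. The sum of 12 bipolar cell markers was 75.3 to 434 FPKM at day 0, 15.2 to 162 at day 2, 8.58 to 61.2 at day 4 and 92.8 to 375 at day 7, and that of 12 Mueller glia and astrocyte markers was 2333 to 4199, 1701 to 2662, 588 to 6550 and 2113 to 3661 FPKM on the same days. On average Apoe made up most of the last sums, with a mean of 2336 FPKM over the 16 libraries. The next of those markers, Clu, had 149 FPKM, so the sums say little of the others. Day 0 replicate 1 stood apart, with 16522 genes at 1 FPKM or more, the most of any library, and with the lowest value of 71 of the 88 ribosomal protein genes that were tested. Of the 16 libraries it also had the lowest microglia sum (2772 FPKM) and the highest rod (13381 FPKM), cone (2270 FPKM), endothelial (395 FPKM) and erythrocyte (418 FPKM) sums.

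The 92 genes together took 1.56% ± 0.51 of the reads at day 0, 1.79% ± 0.32 at day 2, 2.27% ± 0.42 at day 4 and 1.74% ± 0.48 at day 7 (SD, n = 4 each). The shares were 0.897%, 1.44%, 2.03% and 1.88% in the day 0 libraries, 2.2%, 1.85%, 1.68% and 1.44% at day 2, 1.85%, 2.2%, 2.84% and 2.21% at day 4, and 1.81%, 1.26%, 1.51% and 2.38% at day 7. The groups overlapped, with the lowest share in day 0 replicate 1 and the highest in day 4 replicate 3, which also held the highest value of 49 of the 88 tested genes. In bulk RNA, fewer cells of a type and less RNA per cell cannot be told apart, and a share can move because other RNA moved. Another 293 rows with "-ps" symbols of the same families, which lie outside the 92 genes, took 0.385% ± 0.137 of the reads at day 0, 0.448% ± 0.071 at day 2, 0.570% ± 0.104 at day 4 and 0.438% ± 0.136 at day 7 (SD, n = 4 each). Those rows had the same order of days.

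**Figure D1:**
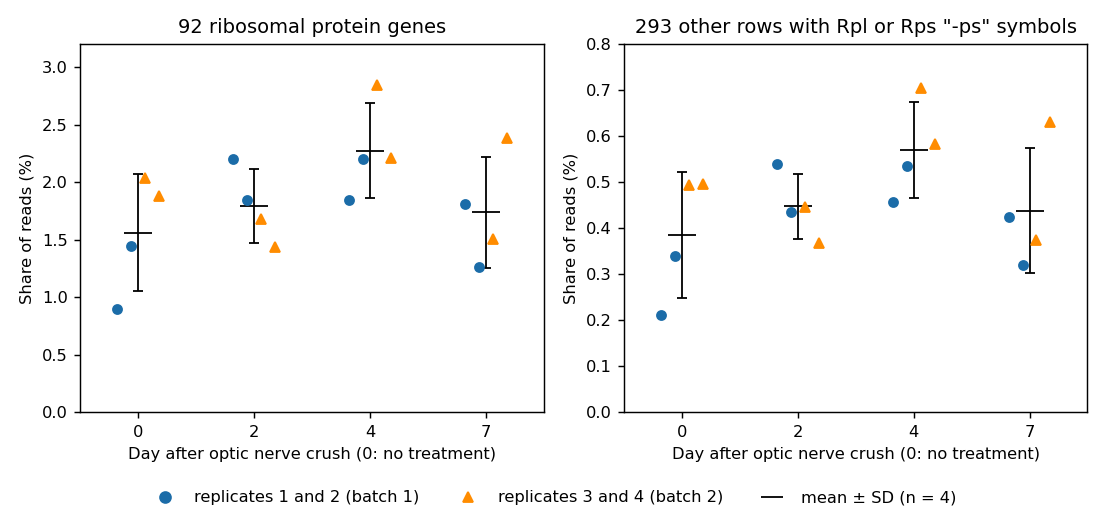
Share of each library's reads (%, y axis) in the 92 ribosomal protein genes (left) and in 293 other rows with "-ps" symbols (right), by day after the crush (x axis); points are libraries, marked by batch, and bars are mean ± SD (n = 4). The 4 days overlap in both panels, with day 0 replicate 1 lowest (0.897% on the left) and day 4 replicate 3 highest (2.84%).

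The level of the genes differed widely. The highest means over 16 libraries were 582 FPKM for Rplp1, an acidic protein of the stalk, and, further down among the 5 highest, 448 FPKM for Rpl4 and 388 FPKM for Rplp0, which anchors the stalk. The 5 lowest were Rpl39l at 2.69 FPKM, Rpl9-ps1 at 0.346 FPKM, Rpl36-ps4 at 0.280 FPKM, Rpl3l at 0.0377 FPKM and Rpl10l at 0.00237 FPKM. Rpl3l, known from heart and skeletal muscle, was above 0 in 4 libraries, and Rpl10l, known from testis, in 1. These levels are per length of all annotated exons of a gene, which was more than 2 times the length of the principal transcript for 51 of the 92 genes, by a median of 2.27 times and up to 9.80 times for Rps15a. Per length of the principal transcript the order changed, and Rpl41, of rank 8 before, came first with 801 FPKM, while Rplp1 took rank 10 with 582 FPKM. Levels therefore rank the genes only on the scale named, whereas the FPKM ratio of 1 gene between days does not depend on its length. The log2(FPKM + 1) change does, in low genes, through the pseudocount.

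Many of these genes have near-identical copies. Of the 92, 87 shared at least 1 stretch of 50 bases of their transcripts with another gene, with a median of 60.6% of their stretches shared and more than 50% for 58 genes. In 62 genes the reads recovered from the FPKM were fractions in all 16 libraries. Rps27 shared 98.6% of its stretches, Rps27rt 91.1%, Rps2 79.0% and Rps27l 22.4%, so that Rps27 and Rps27rt above all are uncertain as separate genes. Rps19bp1, Rpl39l, Rpl3l and Rpl36-ps4 were among those that shared none.

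The TOP tract was more frequent at the annotated starts of these genes than at other starts, though most of their annotated starts lack it. Of the 92 genes, 66 matched an entry of the RefSeq promoter table (GRCm38.p6), with 78 start sites. A C exactly at the start followed by at least 4 pyrimidines was found at 17.9% of these sites, against 2.51% of all 32851 promoters, and such a tract beginning within 5 bases of the start at 41.0%, against 18.3% of all promoters. The letters CCGGAAG, searched on both strands from 250 bases before to 50 bases after the start, were found in 34.6% of the sites, against 8.86% of all promoters, AAGATGG in 15.4% against 6.34%, and TATAA in 23.1% against 24.9%. The AAGATGG matches can hold the start codon and its flank. Below are 8 starts, 5′ to 3′, each with 10 bases before and 20 from the annotated start, with the tract in capitals. They show the tract exactly at the start in Rps27, in the copy Rps27rt and in Rpl38, Rplp2 and Rps6. In Rps27l, the paralog of Rps27, it begins 1 base after the annotated start shown, and the other start of Rps27l has none within 5 bases. The 8 starts also show its absence within 5 bases of the annotated start in Rpl6 and Rplp0. Their positions are chr9:66946076-66946105 on the plus strand for Rps27l (the first of its 2 starts), chr3:90213629-90213658 on the minus strand for Rps27, chr9:114982720-114982749 on the minus strand for Rps27rt, chr11:114668570-114668599 on the plus strand for Rpl38, chr7:141447641-141447670 on the plus strand for Rplp2, chr4:86857348-86857377 on the minus strand for Rps6, chr5:121204491-121204520 on the plus strand for Rpl6 and chr5:115559457-115559486 on the plus strand for Rplp0.
Rps27l: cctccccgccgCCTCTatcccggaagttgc
Rps27: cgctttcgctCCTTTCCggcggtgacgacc
Rps27rt: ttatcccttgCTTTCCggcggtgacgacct
Rpl38: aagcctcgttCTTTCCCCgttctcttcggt
Rplp2: cagcgtcttcCTTTCgccgccggacgccgc
Rps6: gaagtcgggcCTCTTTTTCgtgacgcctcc
Rpl6: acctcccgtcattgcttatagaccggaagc
Rplp0: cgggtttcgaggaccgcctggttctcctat

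Day 4 was the day on which ribosomal protein genes passed the test against day 0. The test was limma on log2(FPKM + 1), with the batch as a covariate and p-values adjusted over the 14795 genes that reached 1 FPKM in 4 or more libraries, and a gene was called at an adjusted p under 0.05. Of the 92 genes, 88 met that minimum, and the other 4 (Rpl10l, Rpl3l, Rpl9-ps1 and Rpl36-ps4) were not tested. The ± of a gene's log2 change is its standard error (SE) in the fit. The ± of an FPKM average is the SD of 4 libraries. At day 4, 12 of the 88 (13.6%) were called, all with higher values than at day 0, where 5.34% of all genes tested were called in either direction and 4.62% as higher. The change of the 88 genes ran between -0.30 and 1.92 on the log2 scale with a median of 0.61, against a median of 0.16 over all genes tested. The change was positive for 85 of 88 genes, against 56.0% of all genes. The 88 genes are highly expressed, and among the 4916 other genes with a mean of 10 to 1000 FPKM the median change was 0.48 and 3455 changes were positive. All 4 day 4 libraries lay above all 4 day 0 libraries for 34 of the 88 genes (38.6%), against 12.6% of all genes, and 40 of the 88 had an unadjusted p under 0.05, against 20.9% of all genes.

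Among the small subunit genes, 5 of 31 were called as higher, where 4.62% of all genes tested were. Rpsa, also known as the laminin receptor, had 179, 185, 176 and 165 FPKM at day 4, against 38.8, 68.9, 87.8 and 104 FPKM at day 0. Its day 4 libraries were close together and its day 0 libraries spread (1.31 ± 0.29, adjusted p = 0.0169). Rps2, at the channel where mRNA enters, had 232, 245, 279 and 233 FPKM at day 4, against 58.3, 87.2, 148 and 133 FPKM at day 0 (1.29 ± 0.26, adjusted p = 0.0115). Rps16 had 129, 167, 169 and 151 FPKM at day 4, against 34.8, 60.2, 81.7 and 91.5 FPKM at day 0 (1.27 ± 0.30, adjusted p = 0.0256). Rps26, which lies by the channel where mRNA leaves and is mutated in some Diamond-Blackfan anaemia patients, had 57.3, 65.3, 67.4 and 52.7 FPKM at day 4, against 19.9, 23.3, 29.6 and 32.1 FPKM at day 0 (1.20 ± 0.28, adjusted p = 0.0262). In these 4 genes no day 0 library reached the lowest day 4 library.

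The other small subunit genes fixed for naming did not pass. Rps6, the substrate of the S6 kinases, averaged 227 ± 56 FPKM at day 4 and 141 ± 52 FPKM at day 0 (0.74 ± 0.26, adjusted p = 0.114). Rps19, a gene of Diamond-Blackfan anaemia, averaged 82.7 ± 13.2 FPKM at day 4 and 53.1 ± 17.3 FPKM at day 0, with no overlap (0.68 ± 0.32, adjusted p = 0.244). Rps3 averaged 209.7 ± 32.5 FPKM at day 4 and 160.5 ± 64.2 FPKM at day 0 (0.47 ± 0.26, adjusted p = 0.326). The X-linked Rps4x averaged 183 ± 75 FPKM at day 4 and 150.4 ± 55.2 FPKM at day 0 (0.31 ± 0.33, adjusted p = 0.652). Rps27 was the lowest of all 88 by its change, with 139 ± 50 FPKM at day 4 and 173 ± 58 FPKM at day 0 (-0.30 ± 0.35, adjusted p = 0.672).

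Among the large subunit genes, 3 of 43 were called as higher, where 4.62% of all genes tested were. Rpl27 had 62.8, 97.9, 98.4 and 99.1 FPKM at day 4, against 26.6, 35.6, 40.7 and 36.5 FPKM at day 0 (1.33 ± 0.31, adjusted p = 0.0256). Rpl38, whose loss in mice disturbs the patterning of the skeleton, had 154, 192, 246 and 117 FPKM at day 4, against 48.6, 66.0, 105 and 70.2 FPKM at day 0 (1.28 ± 0.33, adjusted p = 0.0344). Rpl6 had 61.2, 77.1, 101 and 85.6 FPKM at day 4, against 24.3, 36.9, 32.6 and 42.2 FPKM at day 0 (1.24 ± 0.24, adjusted p = 0.0101). For all of these the day 4 libraries lay above the day 0 libraries, and the changes within the batches were of one sign, as for Rpl6 with 1.17 in batch 1 and 1.30 in batch 2.

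Rpl5 and Rpl11, which together bind Mdm2 when ribosome assembly fails, did not pass and differed in size. Rpl5 had 69.5, 79.1, 97.7 and 107 FPKM at day 4, against 25.2, 22.9, 63.9 and 49.6 FPKM at day 0, without overlap (1.22 ± 0.36, adjusted p = 0.0618). Rpl11 had 39.6, 44.1, 67.4 and 40.2 FPKM at day 4, against 19.0, 27.0, 51.0 and 36.5 FPKM at day 0, with overlap (0.56 ± 0.34, adjusted p = 0.378). Rpl23, a further Mdm2 binder, averaged 136 ± 37 FPKM at day 4 and 69.8 ± 21.8 FPKM at day 0 (0.96 ± 0.30, adjusted p = 0.0763). Rpl3, near the peptidyl transferase centre, had a change of 0.42 ± 0.24 (adjusted p = 0.338), Rpl10, which joins the subunit late, one of 0.45 ± 0.27 (adjusted p = 0.364), and Rpl39, which lines the exit tunnel, one of 0.52 ± 0.36 (adjusted p = 0.451).

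Of the 3 stalk genes, Rplp0 was called as higher, where 4.62% of all genes tested were. It had 447, 541, 568 and 535 FPKM at day 4, against 200.4, 279, 307 and 323 FPKM at day 0, which do not overlap (0.93 ± 0.22, adjusted p = 0.0273). Rplp2 averaged 108 ± 24 FPKM at day 4 and 57.7 ± 12.6 FPKM at day 0, again without overlap (0.89 ± 0.29, adjusted p = 0.0869). Rplp1 averaged 717 ± 195 FPKM at day 4 and 513 ± 186 FPKM at day 0, with overlap (0.53 ± 0.31, adjusted p = 0.370).

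Of the 4 paralogs tested, Rps27l and Rpl36al were called as higher, where 4.62% of all genes tested were. Rps27l, known in human cells as a target of p53, had the largest change of the 12 called genes, 1.92 ± 0.34 (adjusted p = 0.00658), with 2.27 in batch 1 and 1.57 in batch 2. Its libraries held 38.6, 90.2, 156 and 113 FPKM at day 0, 96.3, 157, 184 and 143 FPKM at day 2, 256, 328, 412 and 379.8 FPKM at day 4, and 139, 102, 113 and 318 FPKM at day 7. Every day 4 library was above every library of days 0 and 2, whereas day 7 replicate 4 lay among the day 4 values. The ratio of its means, day 4 over day 0, was 3.46. Rpl36al, a close relative of Rpl36a, had 49.0, 79.7, 111 and 83.2 FPKM at day 4, against 13.1, 31.4, 40.0 and 37.1 FPKM at day 0 (1.44 ± 0.33, adjusted p = 0.0220). The gene model Gm49383 on the same strand overlaps 24.5% of its exon bases. The canonical partner Rpl36a had a change of 0.78 that did not pass (adjusted p = 0.252). Rpl22l1, which in mice is known to increase when Rpl22 is lost, averaged 17.5 ± 4.8 FPKM at day 4 and 8.41 ± 2.63 FPKM at day 0 (0.98 ± 0.32, adjusted p = 0.0923), and Rpl22 itself had 0.35 (adjusted p = 0.596). Rpl39l was listed at 0 in 9 of 16 libraries and had 0, 7.72, 0 and 22.6 FPKM at day 4, against 0, 0.118, 0 and 0.0874 FPKM at day 0 (1.85 ± 0.96, adjusted p = 0.297).

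Rpl7l1, whose yeast relative Rlp7 acts in assembly of the large subunit, was called with 44.0, 60.7, 71.3 and 39.9 FPKM at day 4, against 22.6, 22.4, 11.4 and 16.4 FPKM at day 0 (1.53 ± 0.34, adjusted p = 0.0193). Rps19bp1, a binding partner of Rps19, averaged 25.7 FPKM at day 4 and 8.24 FPKM at day 0, and its libraries overlapped (1.46 ± 0.71, adjusted p = 0.264). None of the 5 copies tested was called, where 5.34% of all genes tested were.

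**Figure D2:**
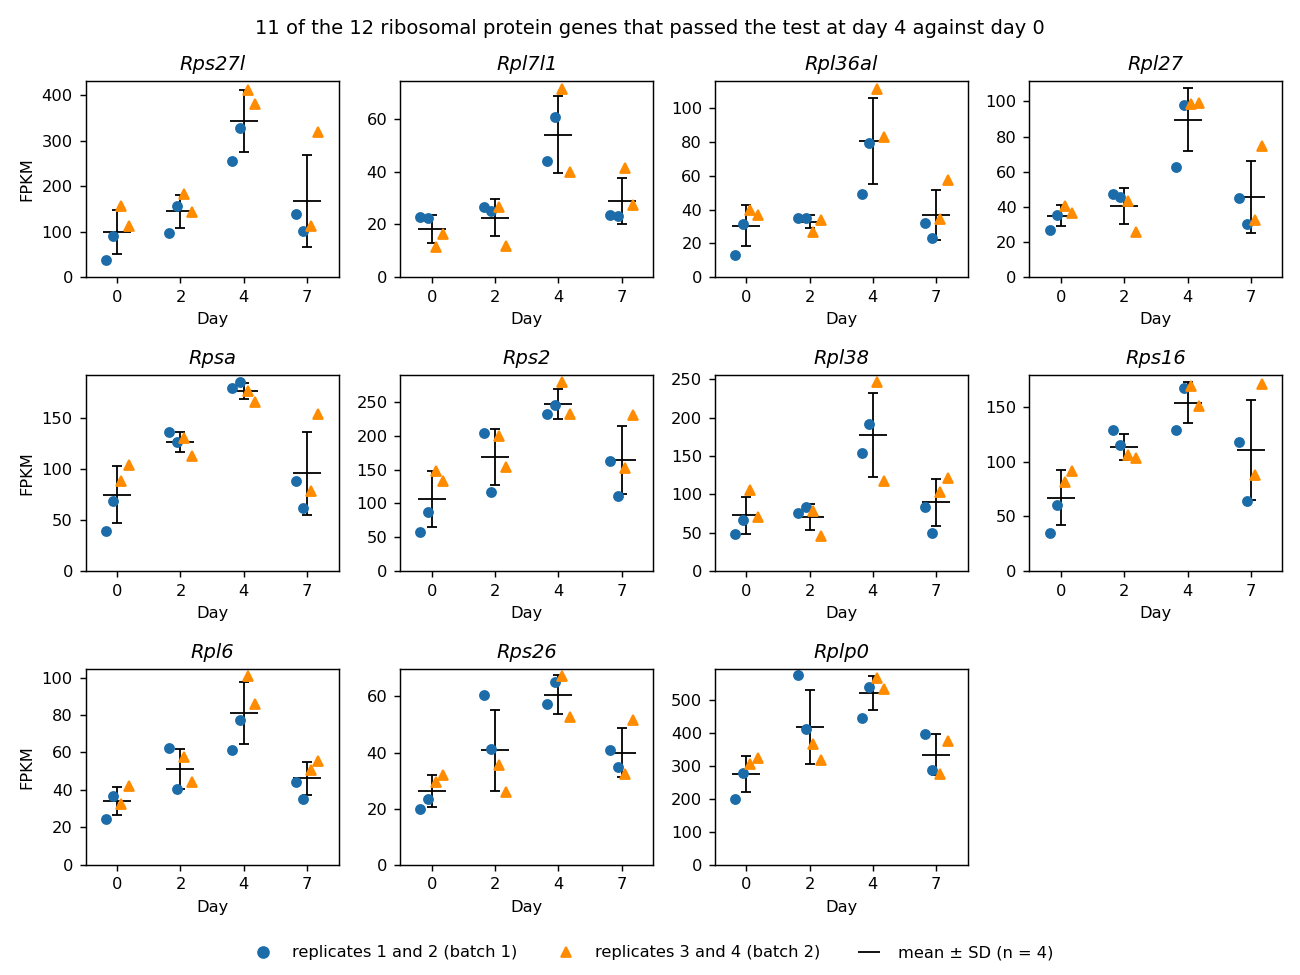
FPKM (y axis) of 11 of the 12 ribosomal protein genes called at day 4 against day 0, by day (x axis); points are libraries, marked by batch, and bars are mean ± SD (n = 4). In each panel all 4 day 4 points lie above all 4 day 0 points, while days 2 and 7 overlap day 0 in panels such as that of Rpl38.

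Marker values of other cells differed between the same days. At day 4 against day 0 all 12 bipolar cell markers had lower values, with a median change of -1.73 and 3 called, and 11 of 12 Mueller glia and astrocyte markers did, with a median of -2.01 and 1 called. The calls of ribosomal protein genes also depended on how the libraries were scaled and on single libraries. Scaling by median-of-ratios factors moved the median change of all genes at day 4 to -0.17 and that of the 88 genes to 0.15, and left 2 of the 88 called, Rps27l among them (1.45, adjusted p = 0.0386). With a covariate for the mean level of bipolar cell and of Mueller glia markers, 0 of the 88 and 0 of all genes were called, with 5 of the 88 at an unadjusted p under 0.05, and the median change of the 88 was -0.03. That mean was 2.71 to 5.44 (log2) in the day 0 libraries and lower, 1.41 to 2.2, in all day 4 libraries, and its part in the result was not tested apart from the day. Without day 0 replicate 1, 6 of the 12 genes were called (Rpl6, Rpl7l1, Rps2, Rps27l and Rpsa among them), without day 4 replicate 2 there were 3 and without day 4 replicate 3 there were 5. Calls over all genes fell too, from 790 to 545, 267 and 499 in the same runs. Rps27l and Rpl6 were called with any 1 library left out, and Rps2 was lost only without day 4 replicate 2 (adjusted p = 0.0519). Rpl7l1, Rpl36al, Rpl27, Rpsa, Rpl38, Rps16, Rps26 and Rplp0 were each lost without 2 to 6 libraries, day 4 replicate 2 among them for all 8.

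At days 2 and 7 no ribosomal protein gene was called by limma against day 0. At day 2, 0 of 88 passed and 6 had an unadjusted p under 0.05, where 0.311% of all genes tested were called and 9.73% had such a p. The median change of the 88 was 0.26, against 0.04 over all genes and 0.21 over the other genes with a mean of 10 to 1000 FPKM. Rpsa came nearest, with 136, 127, 129.8 and 113 FPKM at day 2, against 38.8, 68.9, 87.8 and 104 FPKM at day 0, without overlap (0.83 ± 0.29, adjusted p = 0.312). Rps16 was next with 0.83 (adjusted p = 0.346), also without overlap, and these were the 2 genes whose day 2 libraries all lay above day 0 (3.37% of all genes did). The batches differed at day 2. In batch 1 all 88 genes were higher, with a median change of 0.83, and in batch 2 only 11 of 88 were, with a median of -0.32. No single gene's difference between the batches was called (smallest adjusted p = 0.115). Without day 0 replicate 1 the median change at day 2 was 0.07, against 0.10 over all genes. With the full title code as covariate it was -0.04, against 0.13 over all genes.

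At day 7, 0 of 88 passed and 8 had an unadjusted p under 0.05, where 0.406% of all genes were called and 12.1% had such a p. The median change was 0.22, against -0.07 over all genes and 0.08 over the other genes with a mean of 10 to 1000 FPKM, with 0.44 in batch 1 and 0.01 in batch 2. On the scale of a fixed sum per library (TPM) it was -0.08, where that of all genes was -0.28. The sign at day 7 thus turned with the scaling, while the median stayed above that of all genes on these 2 scales. It was below that of all genes in 2 other runs. Without day 0 replicate 1 the median change was 0.01, against 0.02 over all genes. With the full title code as covariate it was -0.12, against 0.06 over all genes. All 4 day 7 libraries lay above all 4 day 0 libraries for 4 of the 88 genes, against 2.51% of all genes. Rpl22l1 came nearest to the threshold, with 31.9, 18.8, 13.8 and 14.3 FPKM at day 7, against 11.1, 9.33, 4.84 and 8.38 FPKM at day 0. Its libraries did not overlap (1.11 ± 0.32, adjusted p = 0.194), and the changes were 1.19 in batch 1 and 1.02 in batch 2. The change of Rps27l was 0.75 ± 0.34 (adjusted p = 0.390), with overlap.

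**Figure D3:**
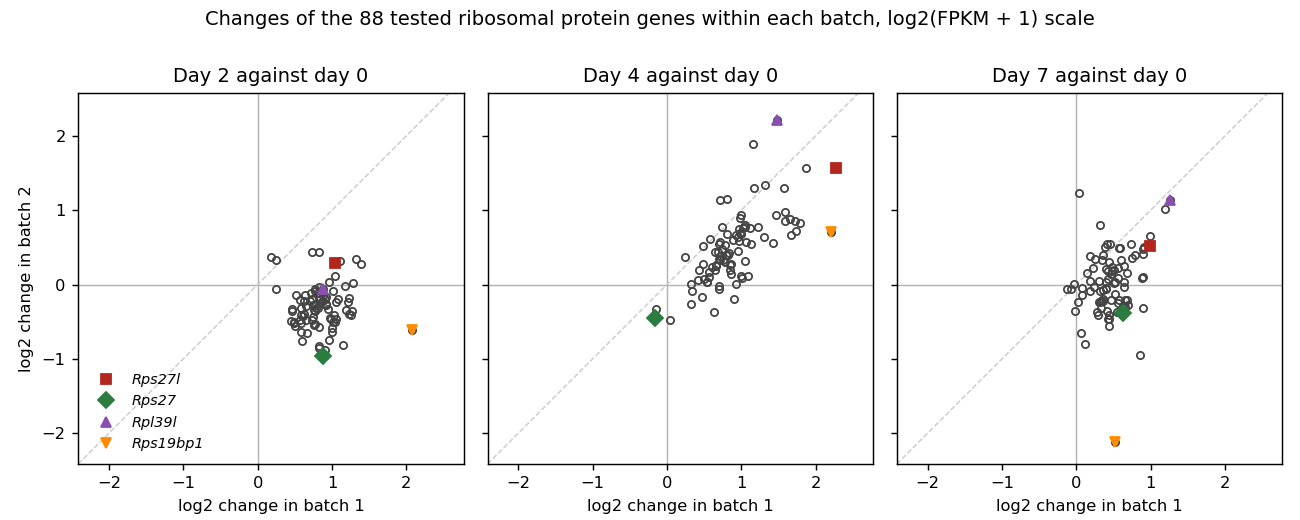
Change of each of the 88 tested genes against day 0 (log2(FPKM + 1) scale) in batch 1 (x axis) and batch 2 (y axis) at days 2, 4 and 7; circles are genes, 4 of them marked by colour, and the dashed line is equal change. At day 2 all 88 lie right of zero in batch 1 and 11 of 88 lie above zero in batch 2, while at day 4 most are above zero in both.

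Between the days after the crush, no ribosomal protein gene was called either, by the same limma fit. At day 4 against day 2, 0 of 88 passed (0.453% of all genes did) and 19 had an unadjusted p under 0.05 (11.4% of all genes did), with a median change of 0.38, against 0.16 over all genes and 0.28 over the other genes with a mean of 10 to 1000 FPKM. All 4 day 4 libraries lay above all 4 day 2 libraries for 19 of the 88 (7.83% of all genes did). The batches were again unlike, with a median of 0.01 in batch 1 and 0.73 in batch 2, where all 88 genes were higher. Rpl38 came nearest, with 154, 192, 246 and 117 FPKM at day 4, against 75.5, 84.1, 78.0 and 46.3 FPKM at day 2 (1.29, adjusted p = 0.102). At day 7 against day 4, 0 of 88 passed (1.63% of all genes did) and 22 had an unadjusted p under 0.05, all with lower values at day 7 (16.3% of all genes had such a p in either direction). The median change was -0.42, against -0.25 over all genes and also -0.42 over the 4916 other genes with a mean of 10 to 1000 FPKM. With median-of-ratios scaling it was 0.02, against 0.05 over all genes. All 4 day 7 libraries lay below all 4 day 4 libraries for 13 of the 88 (8.66% of all genes did). Rpl5 was close to the threshold, with 43.3, 45.5, 26.7 and 30.6 FPKM at day 7, against 69.5, 79.1, 97.7 and 107 FPKM at day 4, without overlap (-1.26, adjusted p = 0.0898). Rps27l had -1.17 (adjusted p = 0.0998). Over the 4 days together an F test called 3 of the 88 genes, Rps27l (adjusted p = 0.0288) and Rpl6 (adjusted p = 0.0447) among them, against 2.89% of all genes. That count was 0 without any 1 of the 4 day 4 libraries and 5 without day 7 replicate 4. Over all genes the F test called 427, which became 149 to 266 without a day 4 library and 510 without day 7 replicate 4.

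Ribosomal protein genes moved largely together from library to library. The correlation of a gene with the mean of the others over 16 libraries (log2(FPKM + 1)) had a median of 0.86, and it was above 0.8 for 67 of 88 genes (76.1%), against 3.60% of the 14707 other genes tested, taken to the mean of the 88. These values describe libraries that share depth, scaling and cell content. Most of the genes also share sequence with another gene, and what each of these adds was not tested. Rpl35 was highest at 0.97, followed by Rpl26, Rpl35a and Rps25 (0.94). The lowest were Rpl39l (0.26), Rps19bp1 (0.30), Rpl22l1 (0.32), Rps27 (0.44) and Rps27rt (0.48). Within a day and batch, the correlation of Rps27 was 0.93 and that of Rps27rt 0.92, so these genes followed the others more closely among replicates than over all libraries. Rpl39l and Rps19bp1 had low correlations both ways, with -0.18 and -0.24 within a day and batch.

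Because most of the genes followed the library, each was also set against the mean of the 77 canonical genes in the same library, a scaling added after the data were seen. On that scale 6 of the 88 were called at day 4 against day 0 over all 14795 genes, where 1.20% of all genes were called. They were 2 above the mean of the class and 4 below it. Rps27l stood above it (1.27 ± 0.25, adjusted p = 0.0273). Rps27 (-0.96 ± 0.19, adjusted p = 0.0329), Rps27rt (-0.89 ± 0.19, adjusted p = 0.0412) and Rps9 (-0.63 ± 0.13, adjusted p = 0.0398) stood below it. Rps9 was lower only relative to the class. It had 166, 196, 288 and 206 FPKM at day 4, against 108, 193, 313 and 275 FPKM at day 0 (limma without this scaling, 0.02 ± 0.28, adjusted p = 0.972). Without this scaling Rps27 and Rps27rt were lower too, with changes of -0.30 and -0.24, though neither was called. The canonical genes among the 6 are part of the mean they are set against. Rps27 and Rps27rt share most of their sequence and count as 1 observation.

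**Figure D4:**
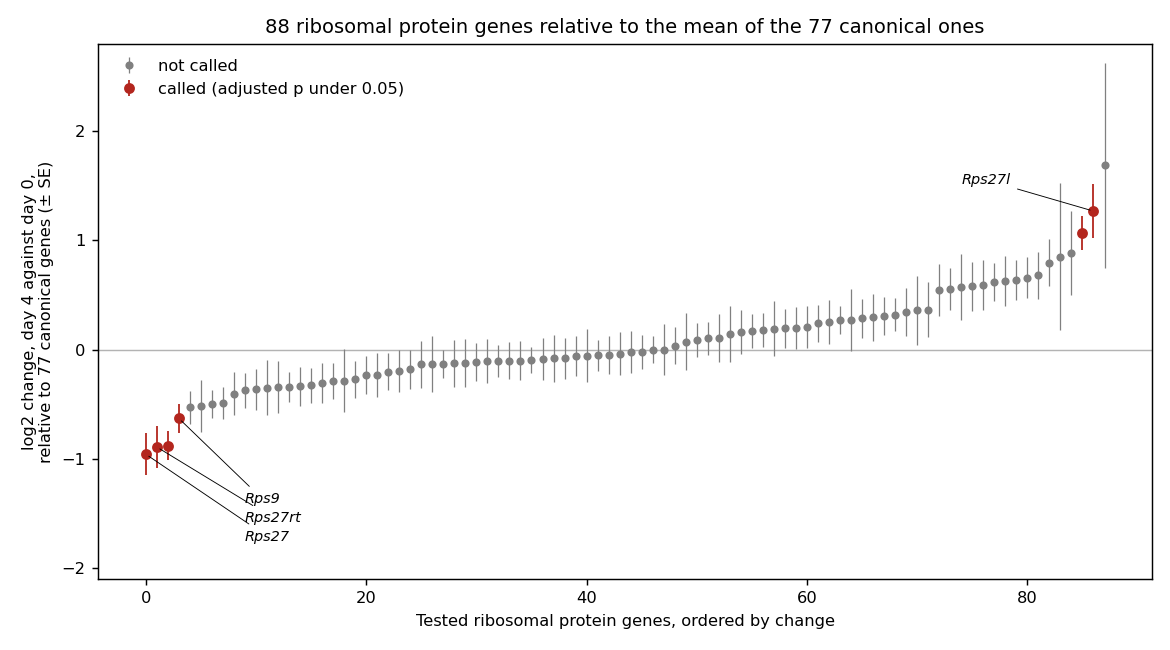
Change at day 4 against day 0 (log2, y axis, ± SE) of the 88 tested genes relative to the mean of the 77 canonical genes, ordered by size (x axis); red points were called over all 14795 genes (limma). Rps27l lies above zero at 1.27, and Rps27, Rps27rt and Rps9 lie below it, while most genes lie close to zero.

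The levels of the paralog pair Rps27l and Rps27 were furthest apart, in favour of Rps27l, at day 4. The difference of their log2(FPKM + 1) within a library, which no scaling of the library moves except through the pseudocount, was 1.34 ± 0.32 at day 4 and -0.89 ± 0.34 at day 0 (SD, n = 4 each). Rps27 held 106, 119.5, 214 and 117 FPKM at day 4, against 103, 155, 238 and 196 FPKM at day 0, and Rps27l exceeded Rps27 in all 4 day 4 libraries and in none at day 0. The exact permutation test of this difference gave p = 0.0286, the smallest that 70 splits of 4 against 4 allow, and p = 0.514 after adjustment over 18 tests, where a single pair at the smallest p could not have passed. At day 2 the pair's difference was -0.18 ± 0.91, negative in batch 1 and positive in batch 2, and at day 7 it was -0.26 ± 0.64. These values are per length of all exons. Per length of the principal transcript the difference was 0.46 ± 0.32 at day 4 and -1.78 ± 0.35 at day 0 (SD, n = 4 each), above 0 in all 4 day 4 libraries and in none of the other days, so the shift between the days was as large while the signs at day 2 were all negative. Other pairs had smaller differences. Rpl39l against Rpl39, with Rpl39l listed at 0 in most libraries, differed by 1.33 between day 4 and day 0 (exact permutation p = 0.371). Rpl36al against Rpl36a differed by 0.66 between day 4 and day 0 (exact permutation p = 0.0571), Rpl7l1 against Rpl7 by 0.98 (p = 0.114) and Rpl22l1 against Rpl22 by 0.63 (p = 0.457). At day 7 against day 0, Rpl22l1 against Rpl22 differed by 1.17 (exact permutation p = 0.143). Rps27rt against Rps27 stood between -0.24 and -0.17 in the mean of every day.

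**Figure D5:**
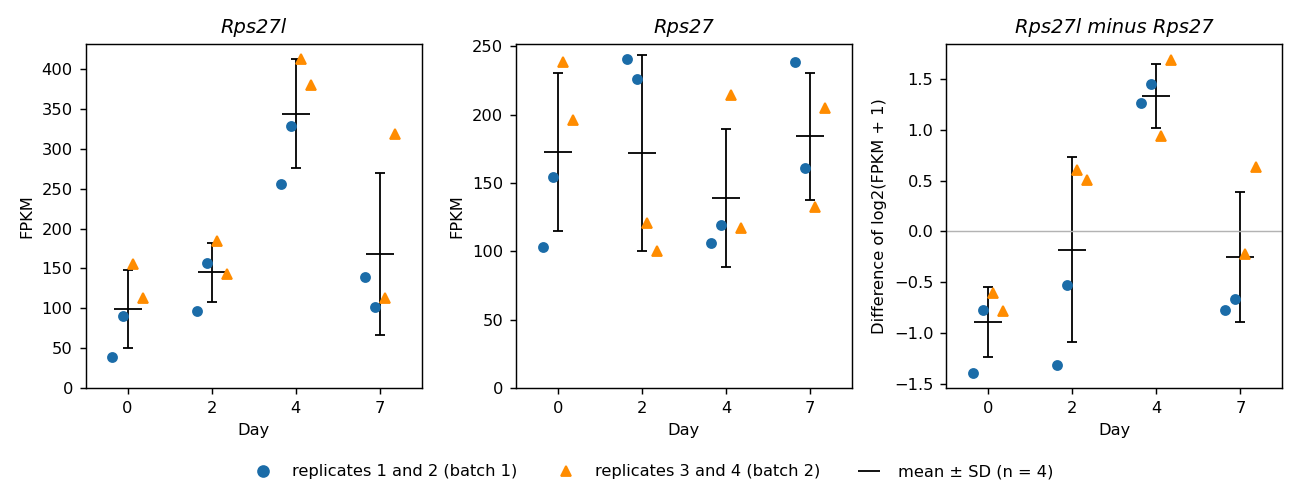
FPKM of Rps27l (left) and Rps27 (middle) and the difference of their log2(FPKM + 1) within each library (right), by day (x axis); points are libraries, marked by batch, and bars are mean ± SD (n = 4). The difference lies between 0.94 and 1.69 in the day 4 libraries and below -0.61 in the day 0 libraries.

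The day 4 changes were also read by how much sequence a gene shares with others, with no test of the difference. The median change was 0.77 in the 12 tested genes with at most 25% of their stretches shared, 0.67 in the 46 with over 25% to 75%, and 0.56 in the 30 with over 75%, with 2, 9 and 1 genes called. Of all genes tested, 4.62% were called as higher. The median was lowest in the genes that share most, and their 1 call of 30 lies near the share of all genes. The group that shares least also holds genes that are not canonical, such as Rps27l, Rpl39l and Rps19bp1, so class and sharing are mixed.

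Genes that work with the ribosomal proteins were read from lists chosen with earlier results of these data known. The counts stand beside 5.34% of all genes tested that were called at day 4. Among ribosomal proteins with other symbols, 1 of 3 was called at day 4. Rack1, a scaffold on the small subunit, had 123, 151, 126 and 149 FPKM at day 4, against 31.4, 39.2, 85.5 and 62.0 FPKM at day 0 (1.42 ± 0.28, adjusted p = 0.0109), while Fau, made as a fusion with a ubiquitin-like protein, did not pass (0.27, adjusted p = 0.620). Of 6 elongation factors, 2 were called. Eif5a, which relieves stalled ribosomes, had 721, 758, 821 and 820.4 FPKM at day 4, against 146, 211, 190.4 and 267 FPKM at day 0 (1.96 ± 0.20, adjusted p = 0.000179), and Eef1d had a change of 1.99 ± 0.39 (adjusted p = 0.0100). Eef1a1, which carries transfer RNA to the ribosome, averaged 741 FPKM at day 4 and 1026 FPKM at day 0 (-0.39 ± 0.27, adjusted p = 0.455).

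Of 14 other genes with TOP mRNAs, 3 were called at day 4, where 5.34% of all genes tested were. They were Btf3 (1.58 ± 0.32, adjusted p = 0.0113) and Naca (1.02 ± 0.27, adjusted p = 0.0421), the subunits of the complex that binds nascent chains, and Npm1 (1.23 ± 0.32, adjusted p = 0.0399), a nucleolar protein of ribosome assembly. Naca and Btf3 were also, of the listed genes, those that followed the ribosomal protein mean most closely over 16 libraries, with correlations of 0.91 and 0.89. Of 7 snoRNA host genes with TOP tracts, 0 were called, and 2 of them, Gas5 at -1.11 (adjusted p = 0.108) and Snhg6 at 1.83 (adjusted p = 0.0732), had opposite signs. Of 8 chaperones and assembly factors of ribosomal proteins, 2 were called, Bccip (1.28 ± 0.31, adjusted p = 0.0262) and Heatr3 (3.15 ± 0.80, adjusted p = 0.0350), and all 8 changes were positive, with a median of 1.38. Of 10 tested genes of growth signalling, 0 were called and the median change was 0.07. The 12 genes of cell division had 9 calls at day 4, with a median change of 3.44. At day 2 they had 5 calls, with a median of 3.23. On that day 0.311% of all genes tested were called, and no ribosomal protein gene was.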

How the data were processed

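Per the labels' protocols, EGFP-positive cells were sorted from retinas, cDNA was made and amplified from lysed cells, and libraries were prepared with Nextera XT, which does not mark strand. The FPKM values were made and deposited by the authors, 1 per gene and library. The submitters' processing notes name STAR 2.7.2b, featureCounts 1.6.1 and GRCm38.p6 (mm10). No source used here states how reads that map to several genes were counted. Value times length gave steps of a hundredth of a read, and library totals of 8647276 to 15708302 reads follow from them, so the values are not whole reads and no count test was run.

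From the FPKM, log2(FPKM + 1) was tested with limma 3.58.1 in R 4.3.3 (trended, two-sided), on genes with 1 FPKM or more in 4 or more of the 16 libraries, with day means and the batch read from the title code as a covariate, and p-values adjusted by Benjamini-Hochberg. Fold changes on this scale understate those of low genes. Pairs of paralogs were compared by exact permutation tests. The fit was checked on simulated data. The genes, gene lists and tests were chosen with earlier results of these data known. Genes named are the 10 largest changes among the called genes, a list of ribosomal proteins with known roles, the 5 highest and 5 lowest by level, and the 5 highest and 5 lowest by correlation to the class. Rps26 and Rps9, and the genes nearest to a threshold, were named after their values were seen. Some genes that enter the counts are not reported here by name. Promoter sequences and motifs are from RefSeq's GRCm38.p6 table. Alternatives were the pseudocount, the filter, the scaling, the covariates, the variance trend and leaving out each library.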

Additional observations from a re-analysis of the deposited data

Results flagged for a closer look

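Single libraries that stood apart within their day were looked for in 164 combinations of a day with a named gene or a sum over the genes, and 11 were found, where chance gives about 1 in 20. Rps4x was low in day 0 replicate 1, at 67.98 FPKM with the other 3 between 170.8 and 182.2 FPKM, and in day 2 replicate 4, at 103.6 FPKM with the others between 189.7 and 201 FPKM. Day 2 replicate 4 was low for Rpl7l1 too, at 12 FPKM (others 24.93 to 26.66 FPKM), and for Rpl27, at 25.41 FPKM (others 43.54 to 47.26 FPKM). Day 4 replicate 3 was high for Rpl11, at 67.36 FPKM (others 39.58 to 44.06 FPKM) and for Rps27, at 214.2 FPKM (others 106 to 119.5 FPKM). Rpl27 was low in day 4 replicate 1, at 62.77 FPKM (others 97.9 to 99.14 FPKM), which is still above every day 0 library.

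The other 4 concern genes at or near 0. Rpl3l had 0.06345 FPKM in day 0 replicate 1 and 0.1041 FPKM in day 4 replicate 1, Rpl39l had 2.797 FPKM in day 2 replicate 2, and Rpl10l had 0.03799 FPKM in day 4 replicate 3, where the other 3 libraries of the day were listed at 0.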

How the results depend on the processing

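The 12 genes called at day 4 against day 0 became 4 with no filter on low values, 2 with median-of-ratios factors (270 of all genes, against 790 before), 6 (2 higher, 4 lower) when scaled by the canonical genes, 4 with the full title code as covariate, 2 in batch 1 alone (303 of all genes), 0 in batch 2 alone and 0 with the bipolar and Mueller marker covariate (both 0 of all genes), and 3 to 15 with 1 library left out. Calls over all genes moved as well. They were 308 with no filter, 178 when scaled by the canonical genes and 379 with the title code. With 1 library left out they were 267 to 955. At day 7 against day 4, the 0 calls became 17 lower on the TPM scale (581 of all genes). They became 1 higher when scaled by the canonical genes (67 of all genes), 1 lower with the title code (104) and 1 lower without the 2 F libraries (241). With 1 library left out there were 0 to 1, lower where called (62 to 256 of all genes). The 3 calls of the F test became 7 with a pseudocount of 5, 8 with a filter at 5 FPKM, 9 on the TPM scale, 1 without the batch covariate, 1 with the title code and 1 without the F libraries, and 0 with no filter, with median-of-ratios factors, in batch 1 alone, in batch 2 alone, with the marker covariate and with no trend, and 0 to 5 with 1 library left out. Over all genes the F test called 427 in the main fit. In the first 3 of these runs it called 609, 568 and 466. In the next 3 it called 286, 336 and 289. In the runs with 0 of the 88 it called 120, 220, 30, 0, 33 and 270, in the order given. With 1 library left out it called 149 to 510. The cause was not tested. Replicate numbers do not pair the samples (correlation of same-numbered deviations -0.0562 to 0.234, over 0.1 in 5 of 24 pairs), and with the replicate block 10 genes were called at day 4 and 1 by the F test. None of the 12 genes called at day 4 against day 0 turned its sign there under any alternative run. Rps9 was called as lower only when scaled by the canonical genes, and its change in the main fit was slightly positive. The scaling by canonical genes was chosen after the data were seen.

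Depth limits the lowest genes: Rpl39l, Rpl3l and Rpl10l were listed at 0 in most libraries, and a library listed at 0 does not show that a gene is silent. Genes with near-identical copies cannot be told apart beyond the authors' counting.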
